A study of Mus musculus with 6 samples.

Results

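Flag-Rxra peaks called in both replicates numbered 17623, out of 28243 peaks in replicate 1 and 45999 in replicate 2. They are the replicate 1 peaks that overlapped a replicate 2 peak by 1 bp or more on chromosomes 1 to 19, X and Y, and they are called shared peaks here. The remaining 10620 peaks of replicate 1 and 27355 peaks of replicate 2 are called replicate 1-only and replicate 2-only. The cells were OG2X129 mouse embryonic fibroblasts, which the series used to study chemical reprogramming, the conversion of somatic cells to pluripotency with small molecules. CUT&Tag, in which a transposase tethered to an antibody cuts and tags nearby DNA, was run with a Flag antibody after Flag-tagged Rxra had been overexpressed (2 samples). Separate samples of the same cell type were profiled for H3K27ac, a histone acetylation found at active regulatory DNA. They followed CD treatment (2 samples) or DMSO (2 samples), and both replicates of each condition share 1 list of regions. Overlap of a Flag-Rxra peak with an H3K27ac region therefore joins different samples, whose cells need not have been in the same state. The labels leave out the compound, if any, given to the Flag-Rxra cells, the day of sampling, and whether replicates were separate cultures. The protein mapped was overexpressed and tagged, so its peaks need not be those of the cells' own Rxra. No list from cells without Flag-Rxra was used here, so binding of Rxra and signal that a Flag antibody or the transposase gives without it cannot be told apart. Read counts are not part of the lists, and depth is therefore unknown. Rxra itself had 1 shared peak inside the gene and 6 replicate 2-only peaks in the gene or within 1 kb of it.

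Rxra encodes the retinoid X receptor alpha, a nuclear receptor that pairs with other receptors such as those for retinoic acid, oxysterols, fatty acids, vitamin D and thyroid hormone. Its DNA-binding domain recognises the core motif AGGTCA, and receptor pairs usually bind a direct repeat of that motif whose spacer depends on the partner. RXR also pairs with itself, on direct repeats with a spacer of 1 base. CD3254, which the series title names, is a synthetic RXR agonist. Sites of nuclear receptors in the genome lie largely in enhancers, away from gene starts.

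Promoter sequences are shown first because the shared peaks were densest just before gene starts. The 4 that follow are from the genes with the best ranked shared peaks at a start. The rank of a peak is the worse of its ranks by fold enrichment in the lists of both replicates, and peaks inside H3K27ac regions whose −log10 q reached 50 were left out. Each stretch gives the 250 bases before the start, 5′ to 3′ on the gene's strand, from RefSeq on GRCm38.p6, the assembly of mm10. Capitals mark the letters CCAAT on either strand, the core of sites for NF-Y, a trimeric factor of many housekeeping and cell cycle promoters.
Kbtbd7 (chr14:79426261-79426510, plus strand): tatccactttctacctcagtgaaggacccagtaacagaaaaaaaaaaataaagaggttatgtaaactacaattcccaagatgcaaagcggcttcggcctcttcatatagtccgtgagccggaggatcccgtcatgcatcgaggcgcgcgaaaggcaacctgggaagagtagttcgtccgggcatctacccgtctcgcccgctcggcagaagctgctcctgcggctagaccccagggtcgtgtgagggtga
Nkapl (chr13:21468502-21468751, minus strand): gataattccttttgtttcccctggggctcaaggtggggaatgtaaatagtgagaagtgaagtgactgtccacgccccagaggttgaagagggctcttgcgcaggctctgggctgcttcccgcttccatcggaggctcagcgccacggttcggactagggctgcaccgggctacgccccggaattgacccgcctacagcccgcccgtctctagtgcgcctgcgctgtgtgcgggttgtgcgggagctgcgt
Ddx56 (chr11:6267730-6267979, minus strand): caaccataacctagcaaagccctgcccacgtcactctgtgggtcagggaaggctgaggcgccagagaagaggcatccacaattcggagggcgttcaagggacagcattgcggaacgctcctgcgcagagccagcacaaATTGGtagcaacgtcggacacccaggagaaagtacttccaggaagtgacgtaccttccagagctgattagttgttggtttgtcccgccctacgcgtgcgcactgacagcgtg
Kifap3 (chr1:163779333-163779582, plus strand): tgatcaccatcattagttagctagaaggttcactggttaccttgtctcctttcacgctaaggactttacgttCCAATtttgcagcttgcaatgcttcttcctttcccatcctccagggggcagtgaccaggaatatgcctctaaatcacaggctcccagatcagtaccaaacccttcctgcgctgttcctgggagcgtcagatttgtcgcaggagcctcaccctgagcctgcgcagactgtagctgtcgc
The Ddx56 and Kifap3 stretches each hold 1 such box, and those of Kbtbd7 and Nkapl hold 0.

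Over all CpG-rich promoters, CCAAT boxes were more frequent under shared peaks than without a peak, as described further on. The next stretches are the 150 bases before the start of the 3 best ranked CpG-rich promoters that held 2 or more CCAAT boxes there under a shared peak, with gene models named Gm left out. This choice was made after the values were seen.
Ghitm (chr14:37135323-37135472, minus strand): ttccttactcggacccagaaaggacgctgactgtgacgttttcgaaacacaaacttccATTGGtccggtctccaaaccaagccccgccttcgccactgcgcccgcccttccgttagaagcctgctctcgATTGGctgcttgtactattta
Rab8a (chr8:72161050-72161199, plus strand): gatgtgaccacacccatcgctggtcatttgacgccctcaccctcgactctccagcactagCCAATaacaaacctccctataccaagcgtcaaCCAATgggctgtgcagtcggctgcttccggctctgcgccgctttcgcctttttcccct
Ifngr1 (chr10:19591799-19591948, plus strand): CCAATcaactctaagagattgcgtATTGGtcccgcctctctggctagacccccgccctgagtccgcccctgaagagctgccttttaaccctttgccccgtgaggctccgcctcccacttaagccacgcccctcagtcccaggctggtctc
Ghitm encodes a protein of the inner mitochondrial membrane, Rab8a a GTPase of vesicle transport and Ifngr1 a chain of the interferon gamma receptor. The folds were 22.3 in replicate 1 and 33.9 in replicate 2 at Ghitm, 21.4 and 31.9 at Rab8a, and 19.6 and 34.2 at Ifngr1. The replicate 1 summit lay 110 bp before the Rab8a start and 101 bp before the Ifngr1 start, and 93 bp after the Ghitm start shown.

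The last stretches are from the only 3 promoters under a shared peak that held an exact direct repeat of AGGTCA with a spacer of 1 to 5 bases. Capitals mark the repeat, whose spacer is 1 base in each.
Srp54a (chr12:55080338-55080430, plus strand): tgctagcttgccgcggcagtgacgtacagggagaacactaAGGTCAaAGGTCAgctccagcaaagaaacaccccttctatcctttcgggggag
Srp54c (chr12:55230244-55230336, plus strand): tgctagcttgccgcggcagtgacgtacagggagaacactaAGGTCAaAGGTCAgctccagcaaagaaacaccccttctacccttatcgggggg
Isca1 (chr13:59769871-59769963, minus strand): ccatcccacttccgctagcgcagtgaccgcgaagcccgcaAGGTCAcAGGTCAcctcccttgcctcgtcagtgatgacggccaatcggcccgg
Srp54a and Srp54c both encode the GTPase subunit of the signal recognition particle, and Isca1 a mitochondrial iron-sulfur cluster assembly protein. The Srp54a and Srp54c stretches are near-identical copies, so reads there may have been assigned to either gene and the values of both are uncertain. The Isca1 peak had folds of 12.6 in replicate 1 and 18.03 in replicate 2, with its summits 91 bp and 4 bp from the repeat. At Srp54a the folds were 14.7 and 21.7, and at Srp54c 19.6 and 20.9.

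The first comparison asked how far both replicates gave the same peaks. Shared peaks made up 62.4% of the replicate 1 list (95% exact binomial interval 61.8 to 63.0) and 40.5% of the longer replicate 2 list (40.1 to 41.0). When 50% of both peaks had to overlap, these shares were 39.97% and 24.5%. Such Clopper-Pearson intervals cover counting error only, and neighbouring peaks are not independent. Of the shared peaks, 16607 overlapped 1 replicate 2 peak and 1016 overlapped 2 or more. Paired summits lay a median of 61 bp apart (quartiles 23 and 131 bp), and 66.7% of pairs lay within 100 bp.

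Strength and sharing went together. In the decile of replicate 1 with the highest fold over the authors' background, 94.0% of peaks were shared, and in the lowest 39.7%. In replicate 2 the same shares were 81.1% and 14.6%. Shared peaks had a median fold of 10.3 in replicate 1 against 7.53 for replicate 1-only peaks, and 14.0 in replicate 2 against 8.997 for replicate 2-only peaks. Shared peaks were also wider, with median widths of 377 bp against 233 bp in replicate 1 and 258 bp against 179 bp in replicate 2. A call in both lists depends on strength, so these values describe the sets and are no finding. Close to the overlap rule, 426 shared peaks overlapped their best partner by under 50 bp, and 339 replicate 1-only peaks had a replicate 2 peak within 100 bp.

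Shared peaks lay at gene starts more often than peaks of either replicate alone. The summit was within 1 kb of an annotated start of a protein-coding gene for 31.5% of shared peaks (30.8 to 32.2), 17.5% of replicate 1-only peaks (16.8 to 18.2) and 7.43% of replicate 2-only peaks (7.12 to 7.75). On each of the 19 chromosomes compared, the share was higher in shared peaks than in either other class. It ran from 21.9% to 41.5% in shared peaks, from 8.22% to 29.7% in replicate 1-only peaks and from 5.03% to 14.1% in replicate 2-only peaks. Chromosome 18 is not among the start sites used here, and Y was left out because it held 10 shared peaks. Peaks within 1 kb of another annotated gene end, which include starts missing from the site table, were 7.98%, 6.67% and 4.22% of the classes in the same order. Inside genes lay 29.8%, 39.6% and 46.1%, and outside genes 30.7%, 36.2% and 42.3%. On chromosomes with start sites, 37.3% of shared peaks lay 10 to 100 kb and 18.1% over 100 kb from the nearest start, so a large part of the set was distal.

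The excess at starts was present at every level of strength. In the strongest quartile of replicate 1, 37.1% of shared peaks (35.9 to 38.3) and 21.3% of replicate 1-only peaks (18.6 to 24.2) were near a start. In the weakest quartile these shares were 22.97% (21.4 to 24.6) and 17.0% (15.9 to 18.2). In replicate 2 the strongest quartile gave 35.5% and 8.52%, and the weakest 27.2% and 7.08%. Peaks of 1 library are not replicates, so no test was run. When sharing was required over 50% of both peaks, the shares near a start came closer, at 29.4%, 24.1% and 13.5% for shared, replicate 1-only and replicate 2-only peaks.

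**Figure D1:**
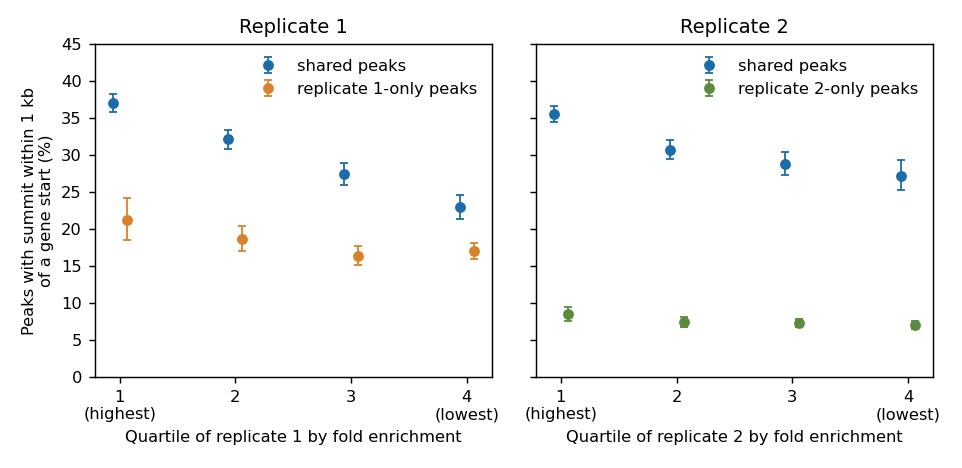
Share of peaks with a summit within 1 kb of a gene start (vertical axis, %) in quartiles of each replicate's list by fold enrichment (horizontal axis). Points are shares and bars are 95% exact binomial intervals; shared peaks lie above the peaks of 1 replicate in every quartile, from 22.97% to 37.1% against 16.4% to 21.3% in replicate 1.

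Within the start region, shared summits sat upstream. Of the 5546 shared peaks within 1 kb of a start, 63.0% had their summit before it, and the median position was −47 bp (quartiles −144 and 53 bp). With the summits of replicate 2 the median was −51 bp and 65.5% lay upstream. Replicate 1-only peaks had a median of 41 bp, with 40.8% upstream, and replicate 2-only peaks a median of −8 bp, with 51.4% upstream. Shared summits were also more tightly placed, with 79.8% of those within 1 kb lying within 250 bp of the start, against 61.3% and 52.5%. The bin with most shared summits was the 100 bp just before the start, which held 9.17% of all shared peaks on chromosomes with start sites, against 3.04% of replicate 1-only and 1.61% of replicate 2-only peaks.

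**Figure D2:**
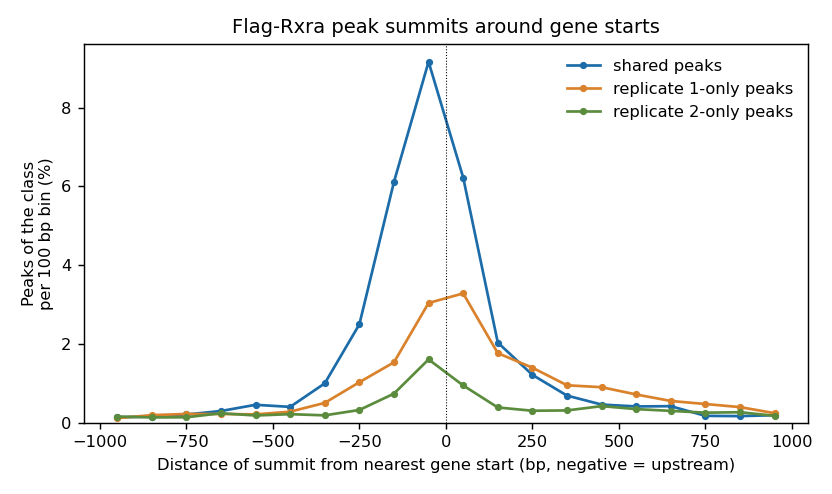
Position of peak summits from the nearest gene start (horizontal axis, bp, negative values upstream) as the percentage of each class per 100 bp bin (vertical axis). Shared peaks reach 9.17% in the bin just upstream of the start, where replicate 1-only peaks are at 3.04% and replicate 2-only peaks at 1.61%.

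Over genes, 5999 of 17492 protein-coding genes with a start site had a shared peak within 1 kb of a start (34.3% of those genes). A further 316 had peaks of both lists that did not overlap each other, 1290 had a replicate 1-only peak, 1245 a replicate 2-only peak and 8642 had none. Ends of genes were seldom covered: of 14387 genes whose 3′ end had no start site within 2 kb, 251 (1.75%) had a shared peak there. Starts that lay head to head with another gene's start within 1 kb had a shared peak in 1111 of 1481 genes (75.02%), against 4888 of 16011 others (30.5%). At such pairs 1 peak can count for both genes. Genes with a shared peak at a start were longer, with a median of 22.7 kb against 10.6 kb for genes without a peak. Genes with 2 or more start sites had one more often (45.7%) than genes with 1 (32.2%), and they offer more sequence in which a peak can fall.

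Genes of the X chromosome were covered less often than those of the autosomes. A shared peak lay within 1 kb of either end in 129 of 966 X genes (13.4%), while the autosomes ranged from 28.0% to 40.3%. The share of replicate 1 peaks that were shared was 62.1% on X, within the autosomal range of 58.7% to 67.8%. H3K27ac regions were scarcer on X as well: a DMSO region lay near an end of 11.9% of X genes and 37.4% of autosomal genes, and a CD region near 14.2% and 39.9%. Among genes with a DMSO region, 61 of 115 on X (53.0%) and 58.3% on the autosomes had a shared peak. Among genes with a CD region these shares were 41.6% and 51.9%. The part that the H3K27ac difference has in the X result was not tested. Txlng, a taxilin family gene on X, was among the best ranked of all genes, with folds of 24.3 and 38.0.

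Gene families differed widely in how many members had a shared peak within 1 kb of an end, against 32.6% of all 21887 protein-coding genes. The family lists were chosen with earlier results of these data known, and their shares are given as descriptions. Several families were above this level. Of 49 Nduf genes, which encode subunits and assembly factors of respiratory complex I, 34 had a shared peak (69.4%, 54.6 to 81.8). Translation initiation factors followed with 35 of 56, proteasome subunits with 24 of 40, Mediator subunits with 18 of 30, mitochondrial ribosomal proteins with 46 of 78, Rab GTPases with 40 of 69 and cytosolic ribosomal proteins with 48 of 91. Zfp zinc finger genes had a peak in 163 of 400 (40.8%, 35.9 to 45.7), and solute carriers in 125 of 389 (32.1%), near the level of all genes.

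The examples that follow are each among the 3 best ranked members of their list. Over all 7128 genes with such a peak, the median fold was 11.3 in replicate 1 and 15.7 in replicate 2, and folds of the longer replicate 2 list were higher in general. Psmc4, an ATPase of the proteasome cap, had folds of 20.8 and 28.8. Eif4ebp2, an inhibitor of cap-dependent translation, had 18.6 and 30.2. Eif2a, a translation initiation factor, had 22.7 and 21.9, and Eif3a, the large subunit of the eIF3 complex, had 17.5 and 29.2. Ndufa4 had 18.3 and 22.8, and Ndufv3 had 15.2 and 30.3. Rab22a, a GTPase of endosomes, had 22.0 and 29.0. Zfp846 had 20.8 and 34.4. Slc35a4 had 19.3 and 35.3, and Slc25a20, the carnitine carrier of mitochondria, had 17.3 and 29.1. Among ribosomal proteins, Rpl3l had 17.6 and 38.3, Rpl15 had 18.8 and 26.0 and Mrps17 had 19.8 and 23.7. The Rpl3l summit lay 3782 bp from the start of that gene, against 134 bp at Rpl15 and 39 bp at Mrps17.

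The olfactory and vomeronasal receptor families were near 0, and the other families below were under the level of all genes. Of 1110 olfactory receptor genes 2 had a shared peak near an end (0.180%, 0.0218 to 0.649), namely Olfr70 with folds of 10.9 and 16.2 and Olfr1033 with 5.64 and 7.07. Vomeronasal receptors had 2 of 355, keratins 2 of 53 and protocadherins 1 of 69. Cytochrome P450 genes had 14 of 99 (14.1%, 7.95 to 22.6), led by Cyp4f13 with 15.7 and 27.1. Collagens had 7 of 44 (15.9%, 6.64 to 30.1), although fibroblasts are rich in them. Col1a1 had folds of 6.95 and 12.5 and Col1a2 of 8.53 and 10.9, all below the medians over all genes with such a peak.

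**Figure D3:**
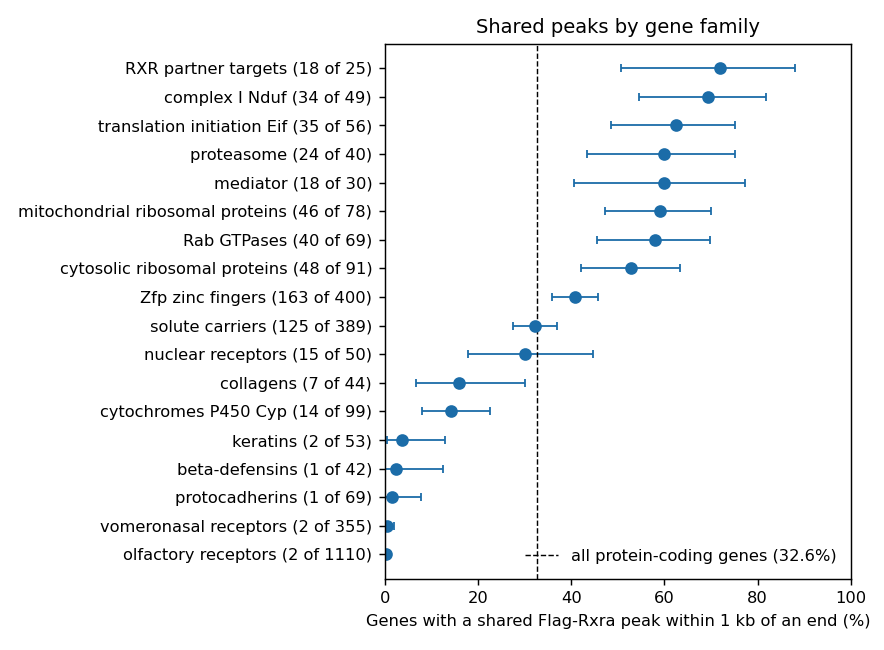
Percentage of the genes of each family with a shared Flag-Rxra peak within 1 kb of an end (horizontal axis), with members counted beside each name. Points are shares, bars are 95% exact binomial intervals and the dashed line is the 32.6% of all protein-coding genes; olfactory receptors are at 0.180% and complex I genes at 69.4%.

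Markers of cell types were looked up in the same way. Of 18 fibroblast markers 8 had a shared peak near an end (44.4%, 21.5 to 69.2), an interval that spans the 32.6% of all genes. At a start the count was 4 of 11 (36.4%), against 34.3% of all genes with a start site. The 8 were Col1a1, Col1a2, Fn1, Vim, Postn, Twist1, S100a4 and Fap. The Postn peak had folds of 15.2 and 19.7, and the Vim peak 12.6 and 22.2. Pluripotency markers had 0 of 10, which allows a share of up to 30.0% by a count of 3, and muscle markers 0 of 7. Macrophage markers had 2 of 8 (Cd14 and Cd68), endothelial 1 of 8 (Tek), epithelial 1 of 8 (Cldn4) and neural 3 of 8 (Nes, Tubb3 and Map2). A peak list does not measure expression, so these counts do not say which cells were present.

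Of 25 genes known to respond to RXR and its partners, 18 had a shared peak near an end (72.0%, 50.6 to 87.9), against the 32.6% of all genes. This list too was chosen with earlier results of these data known, so its share is a description. The level was not particular to it, with complex I genes at 69.4% (54.6 to 81.8) and translation initiation factors at 62.5% (48.6 to 75.1). Their peaks were weaker than most, with median folds of 8.69 and 11.7 against 11.3 and 15.7 over all 7128 genes with such a peak. Lpcat3, a phospholipid-remodelling enzyme and target of the oxysterol receptor LXR, had folds of 18.4 and 25.1. Pdk4, a kinase that turns off pyruvate dehydrogenase, had 16.3 and 18.3. Abca1, the cholesterol exporter, had 11.6 and 17.9, and Srebf1, a regulator of lipid synthesis, had 14.5 and 13.8. Among targets of retinoic acid, Cyp26a1 had 7.59 and 10.6 and Dhrs3 5.53 and 7.34, while Rarb, Stra6 and Crabp2 had no called peak near an end. Cyp24a1, a target of the vitamin D receptor, had 8.67 and 14.9. Fabp4 had none, and Mylip had a replicate 1-only peak.

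Of the genes of the nuclear receptors themselves, 15 of 50 had a shared peak within 1 kb of an annotated end (30.0%, 17.9 to 44.6, against 32.6% of all genes). At any annotated start, internal starts included, 20 of the 44 with a start site had one (45.5%), against 34.3% of all genes with a start site. Nr1h2 and Nr1h3, which encode both LXR receptors, had folds of 15.7 and 14.3, and of 8.33 and 13.0. Ppara had 10.9 and 18.7, Ppard 6.52 and 14.1 and Rxrb 5.57 and 6.82. Nr1d2, a clock repressor, had 14.4 and 25.5 and Esrra, a regulator of mitochondrial genes, had 13.8 and 22.4. Rara, Vdr and Rxrg had no called peak near an end.

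The 12 best ranked shared peaks at gene starts, some with promoters printed above, spanned folds between 22.3 and 31.5 in replicate 1. In replicate 2 their folds lay between 33.6 and 53.0. They are not the strongest peaks of the map. Over all shared peaks the folds reached 57.6 in replicate 1 and 86.8 in replicate 2, and the Kbtbd7 peak ranked 111 and 62 in these lists. Kbtbd7, an adaptor of a ubiquitin ligase, had the highest folds of the 12, at 31.5 and 53.0, and its replicate 1 summit lay 21 bp from the start. Ddx56, an RNA helicase of ribosome assembly, had 26.3 and 37.1, and Kifap3, a subunit of the kinesin-2 motor, had 24.8 and 38.9. Tent2, a cytoplasmic poly(A) polymerase, had 25.3 and 36.7, and Cdc6, which licenses replication origins, had 24.4 and 39.3. Nkapl had 27.7 and 39.5. The other members were Txlng, Eloa, which encodes a subunit of the elongin transcription factor, Ccser2, Pcnx4, Txnl4b and Ghitm. The Eloa and Txlng peaks overlapped no H3K27ac region of either list, and the Kbtbd7, Cdc6 and Ccser2 peaks overlapped a DMSO region only. The Ddx56, Kifap3, Tent2 and Txnl4b peaks overlapped a CD region only, and the Nkapl, Pcnx4 and Ghitm peaks a region of each list.

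Several genes held many shared peaks along their length. Over all protein-coding genes, 57.2% had 0 shared peaks in the gene or within 1 kb of it, 31.5% had 1 and 24 genes had 10 or more. Vps13d, which encodes a lipid transfer protein needed for mitochondria, held 24 peaks in 324 kb, with folds between 4.11 and 17.6 in replicate 1 and between 5.22 and 18.7 in replicate 2. Stard13 held 16 in 391 kb. Cmss1 held 16 in 305 kb, and Filip1l, which lies within it, shares 14 of them by position. Exoc6b, a subunit of the exocyst, held 14, and Rbms3, an RNA-binding protein, 13 in 1057 kb. Frmd4a, Gse1, Lpp, Nxn, Rbpms and Smad3 held 12 each. Per length, Smad3, a transducer of TGF-β signals, had the highest density of these genes, at 10.8 shared peaks per 100 kb, against 7.41 at Vps13d and 1.23 at Rbms3. At Smad3 the folds ran from 3.57 to 13.0 and from 5.66 to 22.8, and CD regions of H3K27ac overlapped 2 of its 12 peaks and DMSO regions 1.

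CpG content separated promoters with and without peaks. A promoter here is the 300-base window from 250 bases before to 50 after a RefSeq start, and it is called CpG-rich when its ratio of observed to expected CpG is 0.6 or more. Of 6174 promoters that a shared peak overlapped, 85.1% were CpG-rich (84.1 to 85.9), against 74.5% under replicate 1-only peaks, 67.0% under replicate 2-only peaks and 24.9% of the 12650 without a peak. Seen the other way, 51.8% of CpG-rich and 8.30% of CpG-poor promoters had a shared peak. The motifs below were therefore compared among the 10137 CpG-rich promoters.

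Of the motifs searched, the CCAAT box of NF-Y had the largest difference in percentage points between CpG-rich promoters under a shared peak and without a peak, while the ratio of these shares was larger for the Ets and YY1 motifs. The letters CCAAT, on either strand, stood in 44.7% of CpG-rich promoters under a shared peak (43.3 to 46.0) and in 26.0% of those without a peak (24.5 to 27.6). Promoters under replicate 1-only peaks were at 27.7% (24.9 to 30.6), near those without a peak, and promoters under replicate 2-only peaks at 35.7% (32.2 to 39.3). Over all CpG-rich promoters the share was 36.5%. In each list taken alone, promoters under any peak were at 41.9% in replicate 1 and 44.0% in replicate 2, against 27.9% and 26.7% without. At least 2 boxes stood in 21.0% under shared peaks and 5.39% without a peak. A match of 5 letters is a description of the sequence and not a bound site.

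The share with CCAAT fell with the strength of the peak. In the quartile with the best ranks it was 54.8% (52.1 to 57.6), then 46.2%, 41.9% and, in the lowest, 35.7% (33.1 to 38.3). The bin with most boxes was the same in each class of promoters. From 100 to 50 bp before the start, 20.3% of promoters under a shared peak held one, against 8.15% without a peak, and after the start the shares were 4.80% and 2.44%. The difference was about as large with H3K27ac as without. Among promoters with an H3K27ac region in either list, CCAAT stood in 43.5% (41.7 to 45.3) under a shared peak and 26.3% (22.9 to 30.0) without a peak, and among those with no region in 46.2% and 26.0%.

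**Figure D4:**
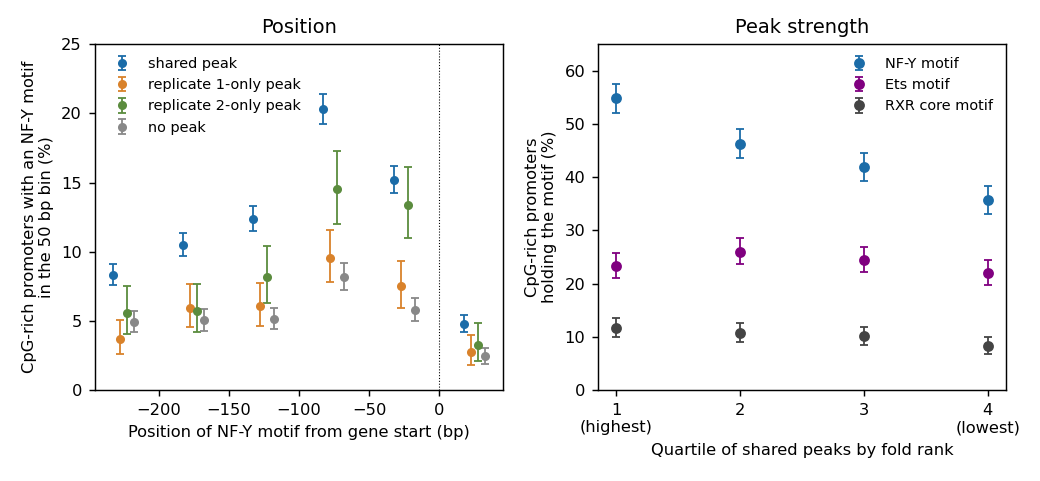
Left, percentage of CpG-rich promoters with an NF-Y motif in each 50 bp bin by position from the gene start (bp), for promoters under shared, replicate 1-only or replicate 2-only peaks or no peak. Right, percentage of CpG-rich promoters under shared peaks that hold the NF-Y, Ets or RXR core motif by quartile of fold rank; bars are 95% exact binomial intervals, and the NF-Y motif goes from 54.8% in the highest quartile to 35.7% in the lowest.

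The core motif of RXR differed by fewer percentage points than CCAAT, though the intervals under shared peaks and without a peak did not overlap. AGGTCA, on either strand, stood in 10.2% of CpG-rich promoters under a shared peak (9.42 to 11.1), 8.22% under replicate 1-only peaks, 9.85% under replicate 2-only peaks and 8.28% without a peak (7.34 to 9.29). By quartile of rank it went from 11.7% (10.0 to 13.6) to 8.31% (6.87 to 9.94). At CpG-rich promoters with an H3K27ac region in either list, AGGTCA stood in 11.1% (10.0 to 12.3) under a shared peak. Without a peak the share there was 7.45% (5.49 to 9.84). With no region the shares were 9.07% (7.93 to 10.3) and 8.47% (7.42 to 9.62). Over promoters of every CpG content the order was the opposite, with 11.1% under shared peaks and 17.1% without a peak. CpG-poor promoters held the letters more often (19.6%) than CpG-rich ones (9.38%). Exact direct repeats with a spacer of 1 to 5 bases stood in 3 of 6174 promoters under shared peaks, those of Srp54a, Srp54c and Isca1 printed above. That share of 0.0486% compares with 9 of 12650 promoters without a peak (0.0712%) and 12 of all 21263 (0.0564%). The letters of the repeat with 1 spacer base, AGGTCANAGGTCA, stood in 10 of all 21263 promoters, or 0.0470%. Sites that depart from these letters were not searched, and absence of the letters from a promoter window says nothing of Rxra elsewhere.

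Other promoter motifs were compared in the same way. The Ets motif CCGGAAG stood in 24.0% of CpG-rich promoters under a shared peak and 12.5% without a peak. Unlike CCAAT, it did not order with peak strength, with 23.4% in the highest quartile of rank and 22.0% in the lowest. Among promoters with an H3K27ac region the Ets shares were 25.6% (24.0 to 27.2) and 20.5% (17.4 to 24.0), and among those with no region 22.0% (20.3 to 23.7) and 10.6% (9.42 to 11.9). The Sp/Klf motif GGGCGG stood in 78.0% and 68.9%, the NRF1 motif CATGCGC in 10.0% and 6.06%, and the YY1 motif AAGATGG in 8.21% and 4.60%. The cAMP response element TGACGTCA stood in 4.36% and 2.98%. The E-box CACGTG (11.6% and 10.5%), the TEAD motif GGAATG (9.87% and 10.2%) and the AP-1 motif TGANTCA (3.50% and 3.61%) had overlapping intervals. By quartile of rank the NRF1 motif also fell at each step, from 11.9% (10.2 to 13.8) to 8.54% (7.08 to 10.2). The Sp/Klf, YY1, cAMP response element and AP-1 motifs did not fall at each step. Over all CpG-rich promoters the shares were 19.8% for Ets, 74.1% for Sp/Klf, 8.34% for NRF1, 7.01% for YY1, 3.72% for the cAMP response element, 11.4% for the E-box, 10.0% for TEAD and 3.45% for AP-1.

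**Figure D5:**
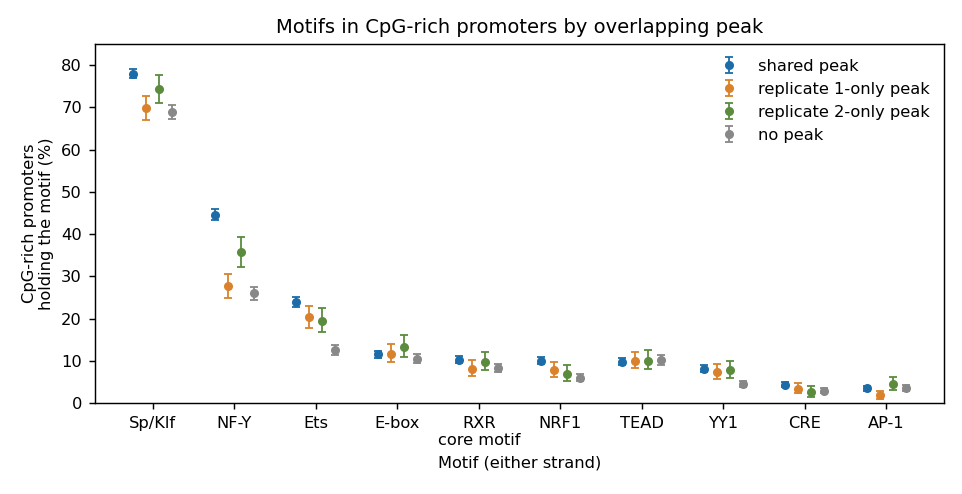
Percentage of CpG-rich promoters that hold each motif on either strand (vertical axis) by the kind of peak that overlaps the promoter. Points are shares and bars are 95% exact binomial intervals; the NF-Y motif is at 44.7% under shared peaks and 26.0% without a peak, while the RXR core motif is at 10.2% and 8.28%.

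H3K27ac regions overlapped shared peaks more often than the other peaks. A DMSO region overlapped 34.4% of shared peaks (33.7 to 35.1), 17.3% of replicate 1-only and 10.2% of replicate 2-only peaks, and a CD region 26.9%, 15.7% and 9.46%. The order held on each of 20 chromosomes for both lists. Shared peaks near a start overlapped a DMSO region in 45.4% and a CD region in 36.6%, and shared peaks outside genes in 30.04% and 22.3%. Of all shared peaks, 54.1% overlapped a region of neither list. The H3K27ac lists were called leniently, and when a −log10 q of at least 2 was required of them the shares of shared peaks fell to 10.5% for DMSO and 6.87% for CD. The CD list is the longer of both, each condition has 1 list, and no comparison of CD with DMSO is made here. Shared peaks were also wider, and the part of width in these overlaps was not tested.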

How the data were processed

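CUT&Tag peak lists of 6 samples were used: 1 list for each of 2 Flag-Rxra replicates and 1 H3K27ac list for each of the CD and DMSO conditions. Per the submitters' processing notes, the tools were MACS2 2.1.2, Bowtie2 2.2.5, fastp 0.20.1 and deepTools 3.4.3, with the build mm10. Whether the peak caller used a control library was not given in the sources used here. The fold enrichment of a peak is a ratio over the background, as deposited by the authors. The −log10 q of a peak is also the authors' deposited value, with a minimum of 5 in the Flag-Rxra lists. Both were used only to rank, describe or filter peaks within a list. The lists hold no counts, so depth is unknown. Peak names inside these lists use codes that differ from the titles, so the labels alone assigned lists to replicates.

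Overlap meant 1 bp or more, and shared peaks carry replicate 1 coordinates unless stated. Gene ends came from RefSeq on GRCm38.p6 (21887 protein-coding genes) and starts, strands and 300-base promoters from a RefSeq promoter table (21263 start sites of 17492 genes, matched by gene ID). Location followed the summit. A gene counted if any base of a shared peak fell within 1 kb of its end or start. Motifs were searched as exact letters on both strands: AGGTCA alone, as direct repeats with 1 to 5 spacer bases and as an inverted repeat, and the 9 others named in the report. Shares carry 95% Clopper-Pearson intervals. No test was run, because peaks and genes of 2 libraries are not replicates. Overlap, location and motif steps were checked on simulated intervals.

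Genes were named by rule: the 12 best ranked start peaks outside H3K27ac regions of −log10 q of 50 or more, the genes with the most shared peaks with ties, the strongest peaks of 1 replicate, and up to 3 members of each list. Further list members were named after their values were seen, and some members are not reported here. The members and lists were chosen with earlier results of these data known. Computations used Python 3.11.15, numpy 2.4.6, pandas 2.3.3, scipy 1.17.1 and matplotlib 3.10.9. Alternatives covered overlap, q threshold, window, summit, list length and H3K27ac strength.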

Additional observations from a re-analysis of the deposited data

How the results depend on the processing

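Of 67 values recomputed under alternatives, 31 stayed inside the counting interval of the reported value, or within 1.5 times a gene count, and 36 did not. The order of the 3 classes near a start and at H3K27ac regions was the same in each alternative. When 50% of each peak had to overlap, 39.97% of replicate 1 and 24.5% of replicate 2 were shared, 29.4% of shared, 24.1% of replicate 1-only and 13.5% of replicate 2-only peaks were near a start, 4415 genes had a shared peak near an end (7128 as reported), and CD regions overlapped 19.99% and DMSO regions 23.6% of replicate 1-only peaks, with 12.3% and 14.5% for replicate 2-only peaks. With a −log10 q of 10 or more, 68.6% and 46.7% were shared, and the shares near a start were 32.3%, 20.2% and 8.99% in the same class order. With the replicate 2 list limited to its strongest peaks, as many as replicate 1 holds, 55.0% and 57.2% were shared, with 32.5%, 18.6% and 9.25% near a start. A window of 500 bp gave 28.9%, 14.3% and 5.29% near a start, and one of 2500 bp gave 34.3%, 20.5% and 11.02%. With any overlap in place of the summit, replicate 2-only peaks were at 7.78%, and without chromosome 18, an alternative added after the data were seen, shared peaks were at 32.5%. With H3K27ac regions of −log10 q of 2 or more, CD regions overlapped 6.87% of shared, 3.83% of replicate 1-only and 1.95% of replicate 2-only peaks, and DMSO regions 10.5%, 5.02% and 2.68%. With the summit inside the promoter, CCAAT stood in 48.9% of CpG-rich promoters under shared peaks and 29.2% without a peak. From 1 replicate alone, 9118 to 9213 genes had a peak near an end. No paired analysis was possible because the results come from no test. Depth is unknown, so an uncalled peak does not show that Rxra was absent, and a difference in depth between replicates cannot be told apart from one in binding.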

Other observations

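The motif list was fixed by name, so every 6-base word was also counted, an addition made after the data were seen. Words are counted on either strand, among CpG-rich promoters, and 1622 of them stood in 5% or more of promoters under a shared peak. The median ratio of the share under a shared peak to the share without a peak was 1.05. Of the 10 words with the highest ratios 5 held CCAAT or its complement, out of 8 such words among all 1622. The highest was ACCAAT, in 17.4% of promoters under a shared peak and 6.53% of those without a peak. ATTGGC stood in 25.9% and 10.9%, and CCAATC in 26.9% and 12.7%. The word CAATCA, which holds part of the box, stood in 17.7% and 7.51%. The word with the highest ratio that shares no such part, TACGCA, stood in 6.82% and 3.08%. Neighbouring words overlap, and the counts are descriptions of these promoters.

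Strong peaks of 1 replicate were present at gene starts and ends too. The strongest replicate 1-only peaks near a start or end were taken outside strong H3K27ac regions. They lay at Psmb2, a proteasome subunit, with a fold of 27.3, at Hook1 with 23.8, at Tmem168 with 21.8 and at Rnase10 with 21.4. The strongest replicate 2-only peaks lay at Cfdp1 with 37.9, Gfod2 with 34.1, Disp1 with 31.4 and Lyplal1 with 31.3. The Disp1 summit lay 17 bp from a start of the gene but 61276 bp from its nearest annotated end. The Psmb2 peak ranked 147 in replicate 1 and the Cfdp1 peak 171 in replicate 2, so a high fold in 1 list did not always go with a call in the other.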
